A study of Arabidopsis thaliana with 21 samples.

Results

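The chromosome arm sites that the wild-type GL2 fusion alone was called at are weak peaks: 306 loci of 6826 in all, and most of them rest on 6 sequencing tags. They come within 1 kb of 342 genes, 1.3% of the protein-coding genes on the arms. Among these is ATML1 (MERISTEM LAYER 1), a class IV homeodomain leucine zipper gene that specifies the shoot epidermis, with 11 tags. The sites were selected on the deposited peak calls. To find them, the peaks of 6 lists on chromosomes 1 to 5 were merged into loci wherever they overlapped by 1 bp or more. Loci were set aside if they touched a window around a centromere or the dense peak clusters at PDF2 and at GL2 itself. The windows reached from 13 to 17 Mb on chromosome 1, 2 to 6 Mb on chromosome 2, 11.5 to 16 Mb on chromosome 3, 2.5 to 5.5 Mb on chromosome 4 and 10 to 14 Mb on chromosome 5. Loci that held a peak of the GL2 list and of no other list were kept. Each of the 306 holds exactly 1 GL2 peak, so that locus and peak are the same thing below. The absence of these sites from the other lists is therefore how they were found and not a result.

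The study asked where GLABRA2 (GL2) and altered forms of it sit in the genome. Columbia seedlings of Arabidopsis thaliana, 10 days old, were used for chromatin immunoprecipitation and sequencing (ChIP-seq), and an anti-GFP antibody pulled down the EYFP tag of each fusion. The genotypes were EYFP:GL2 wild type (3 ChIP libraries), EYFP:gl2_dSTART mutant (2), EYFP:gl2_dZip mutant (2), EYFP:gl2_Amo mutant (3), EYFP:gl2_E375G R392M mutant (3) and, without any transgene, the gl2-5 null mutant (2). All 6 share the gl2-5 null background and each has 1 input library. The wild-type transgene rescued the mutant, and the altered forms did not, according to the labels. Neither the promoter that drives the fusions nor the number of independent lines is given in the sources used here, and whole seedlings were used, so epidermal cells are a fraction of the material. The libraries of a genotype had been merged before peaks were called. The values below are therefore 1 measurement per site, without replicate error, and no difference between genotypes could be tested over replicates.

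GL2 belongs to a plant family that joins a DNA-binding homeodomain to a leucine zipper, through which partners pair, and to a START domain, a lipid-binding module. It acts in the outermost cell layer: it promotes leaf hairs (trichomes), represses root hairs in non-hair files and is needed for seed coat mucilage. Relatives such as ATML1 and PDF2 (PROTODERMAL FACTOR 2) set up the epidermis earlier in development, and family members bind a short element called the L1 box in promoters of epidermal genes. No genome sequence was used here, so that neither the sequence under the peaks nor the L1 box is described.

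Of 967 loci with a GL2 peak, 603 lay on the arms, and 306 of these, or 50.7%, were in no other list. That share is fixed by the rule. A further 83 loci of GL2 alone lay in the centromere windows and are not described. The 297 arm loci that dropped out were divided into 212 that also held a gl2-5 peak, with or without other fusions, and 85 that held peaks of other fusions but none of gl2-5. Among all 603, 245 also held a gl2_E375G R392M peak, 229 a gl2_Amo peak, 212 a gl2-5 peak, 144 a gl2_dSTART peak and 64 a gl2_dZip peak. Few depended on 1 list. The gl2_Amo list alone removed 17 loci, gl2_E375G R392M 14, gl2-5 13, and gl2_dSTART and gl2_dZip 4 each.

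The tag counts of the GL2-only peaks were low and nearly uniform. Tags are reads kept after the caller allowed 1 read per position, and 6 was the lowest count of any peak in the GL2 list. Of the 306 peaks, 194 (63.4%) held 6 tags, 62 held 7, 28 held 8, 9 held 9 and 13 held 10 or more, up to 21. The median was 6 tags for GL2-only peaks, against 9 for peaks shared with other fusions and 16 for peaks shared with gl2-5. Of the GL2-only peaks 4.25% had 10 or more tags, against 47.1% and 81.1% in the same order. The ranges of all 3 kinds began at 6 tags, but the upper quartile of GL2-only peaks, 7 tags, lay below the lower quartile of peaks shared with gl2-5, 11 tags. These counts belong to the values that made the calls and are given as a description, with no test.

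**Figure D1:**
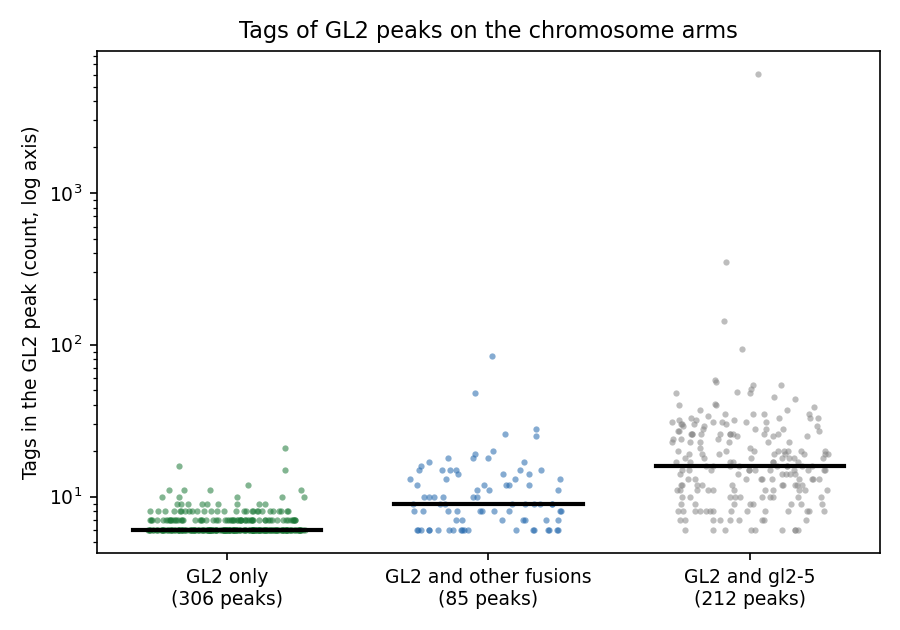
Tags (count, log axis) of each GL2 peak on the chromosome arms, by whether the locus was in the GL2 list alone (306 peaks), shared with other fusions (85) or shared with gl2-5 (212). Points are single peaks and black lines the medians of 6, 9 and 16 tags.

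Median fold enrichment ran in the opposite order to the median tags, while the median score and the share of peaks with a low false discovery rate (FDR) ran in the same order. The fold enrichment is the ratio of tags at the summit to the background the caller used there, local or genome-wide. Its median was 35.4 in GL2-only peaks (range 9.43 to 70.9), against 22.5 in those shared with other fusions and 13.9 in those shared with gl2-5. The median score, 10 times the negative log10 of the p-value given by the caller, was 76.6 for GL2-only peaks, against 91.1 and 124. An FDR of 5% or less was reached by 75 GL2-only peaks (24.5%), against 40 of 85 (47.1%) and 144 of 212 (67.9%). No GL2-only peak had an FDR below 2.31%. The best GL2-only peak had a score of 205, which 128 of the 1001 nuclear GL2 peaks exceeded, and 118 GL2-only peaks were at or above the median score of the whole list.

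High folds on few tags came mostly with a local background at the genome-wide average. When fold is multiplied by the average tag number per fragment length in the GL2 library, 0.141, it gives the height of the tag pile at the summit wherever the caller used the genome-wide average as background. This product was a whole number, to within 0.02, for 200 of the 306 GL2-only peaks (65.4%, 95% Wilson interval 59.9 to 70.5). The same held for 20 of the 85 peaks shared with other fusions (23.5%, 15.8 to 33.6) and for 38 of the 212 shared with gl2-5 (17.9%, 13.3 to 23.6). Pile heights of the 200 ran from 3 to 10 tags, and 85 of them stood at 6. Of these 200 peaks, whose height could be read, 91 had every tag overlapping at the summit, while for GL2-only peaks with a raised local background this could not be read. The 91 piles were 59 to 107 bp long, at a tag length of 51 bp. Peak length over all 306 ran from 59 to 211 bp with a median of 111 bp, against medians of 90 bp in peaks shared with other fusions and 91 bp in peaks shared with gl2-5.

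The 194 peaks of 6 tags had scores from 51.3 to 138, folds from 12.4 to 42.5 and lengths from 59 to 161 bp, and only 27 of them had an FDR of 5% or less. Across these 194 peaks the score was higher where the tags lay in a shorter stretch (Spearman's rho -0.80, a description, since both values come from the same call). Many peaks carried identical scores: 31 peaks had 91.1 and 26 had 76.6, and the 306 peaks shared 166 values in all. The order of single peaks by score is thus coarse.

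**Figure D2:**
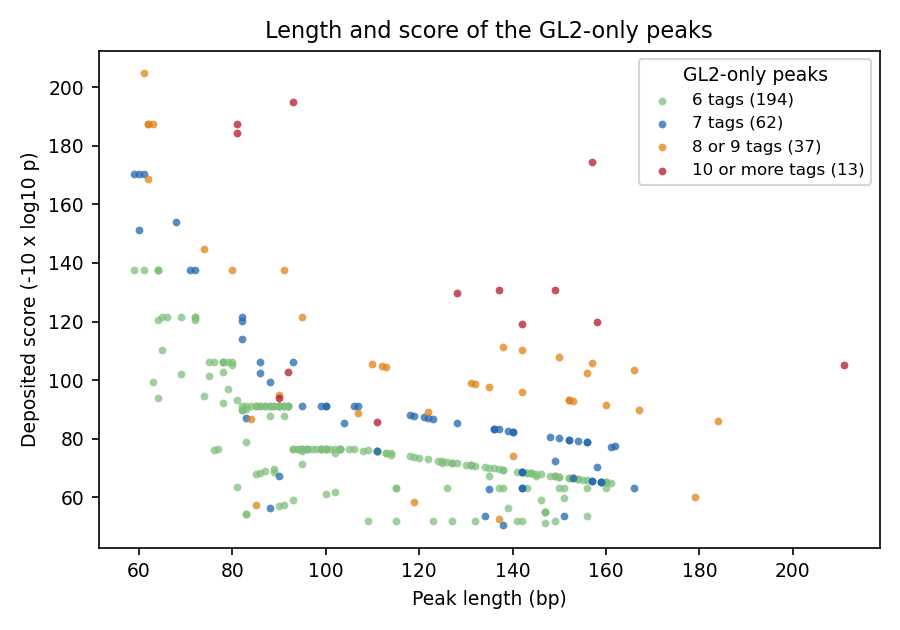
Peak length (bp) against the deposited score for the 306 GL2-only peaks, coloured by tag count. Scores of the 194 peaks with 6 tags run from 138 at the shortest length, 59 bp, down to 51.3, and the 13 peaks with 10 or more tags span lengths of 81 to 211 bp.

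The other lists differed in depth, which bears on what their silence at these sites can show. GL2 kept 352707 ChIP tags, and the others between 227071 (gl2-5) and 1248287 (gl2_dZip). A GL2-only peak of 6 tags corresponds to 3.86 tags at the depth of gl2-5, where the lowest count of any called peak was 5. Only the 50 GL2-only peaks with 8 or more tags (16.3%) would reach that count. At the other depths 6 tags correspond to 5.06 for gl2_dSTART (lowest peak 5), 6.34 for gl2_E375G R392M (lowest 6), 9.16 for gl2_Amo (lowest 6) and 21.2 for gl2_dZip (lowest 8). Reaching the lowest count does not ensure a call, because the local background enters too. At the other GL2-only sites an equal density of tags in the null mutant would fall below the lowest count called there. A missing peak in gl2-5 does not show that its tags were fewer. Of the 50 peaks that would reach the count, 34 had an FDR of 5% or less.

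**Figure D3:**
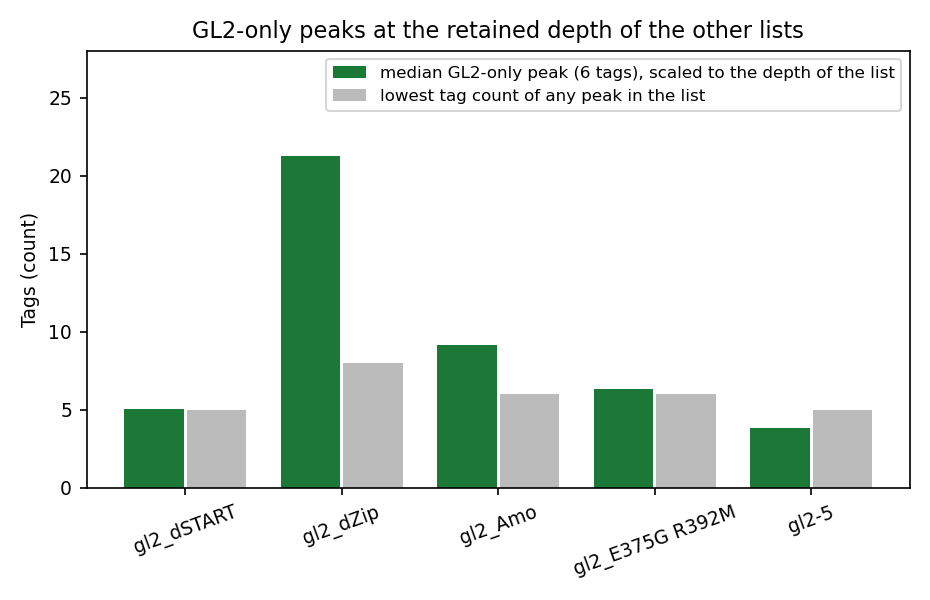
For each other list, the median GL2-only peak of 6 tags scaled to the tags that list kept (green) and the lowest tag count of any peak in it (grey). Only for gl2-5 does the scaled count, 3.86, fall below the lowest called count, 5.

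The rule excluded overlap with peaks of the other lists, so some distance to them was fixed in advance. The arms held 3954 loci of all lists over 99.6 Mb. No baseline distance for other positions was computed, so the distances do not show that the sites are set apart. The distance from a site to the nearest peak of another list had a median of 11008 bp and ran from 8 to 84698 bp. It was 100 bp or less at 2 sites, 500 bp or less at 8 and 1000 bp or less at 20 (6.54%). The 2 sites just inside the rule were a peak at 1987118 to 1987259 on chromosome 4, 8 bp from a gl2-5 peak, and one in AT1G21140 (chromosome 1, 7404782 to 7404896), 10 bp from a gl2_dSTART peak, with 6 tags each. Just outside it was a GL2 peak of 6 tags at 14355202 to 14355305 on chromosome 2, which overlapped a gl2_dSTART peak by 21 bp. Over the 297 dropped loci the median overlap was 88 bp.

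GL2-only sites were spread over all chromosome arms. There were 78 on chromosome 1, 51 on chromosome 2, 56 on chromosome 3, 57 on chromosome 4 and 64 on chromosome 5. Per Mb of arm between the first and last annotated gene this was between 2.79 (chromosome 5) and 3.66 (chromosome 4), with 3.07 over all. Neighbouring sites were a median of 219584 bp apart, and 3 of 301 gaps were 5 kb or less. Each chromosome had a median of 6 tags per site, and between 12 and 23 sites with an FDR of 5% or less.

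Most GL2-only summits fell inside genes, close to the proportion in which genes fill the arms. The summit lay in a protein-coding gene at 181 of 306 sites (59.2%, 95% Wilson interval 53.6 to 64.5), and such genes cover 62.4% of the arm sequence. GL2 peaks shared with other fusions were there in 37.6% of cases (28.1 to 48.3), and those shared with gl2-5 in 36.8% (30.6 to 43.5). Conversely, the 1 kb flanks of genes held 19.0% (15.0 to 23.7) of the GL2-only summits, against 35.3% (26.0 to 45.9) and 36.3% (30.1 to 43.0) in the same order, and cover 21.2% of the arms. Pseudogenes held 14 GL2-only summits (4.58%, 2.74 to 7.53) and cover 3.43% of the arms, and genes for RNAs without a protein held 4. Another 49 summits (16.0%, 12.3 to 20.5) lay outside all of these classes. The classes leave 11.7% of the arms, a share below that interval. The intervals cover counting error only, treat sites as independent, and no test was made between the kinds of site.

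Sites that were in the list of 1 altered form alone had shares near that of GL2-only sites for 3 of the 4 forms. The share of summits in protein-coding genes was 59.2% for GL2-only sites, against 60.7% (57.5 to 63.8) of 931 gl2_dSTART-only sites, 57.2% (52.5 to 61.8) of 435 gl2_E375G R392M-only sites and 55.8% (53.2 to 58.5) of 1336 gl2_Amo-only sites. It was 39.6% (33.9 to 45.6) for 265 gl2_dZip-only sites and 77.1% (71.0 to 82.1) for 218 gl2-5-only sites. The lists differed in deposited FDR. An FDR of 5% or less was reached by 0 gl2_dZip-only and 0 gl2-5-only peaks, with median FDRs of 100% and 11.5%. It was reached by 100% of gl2_dSTART-only, 99.5% of gl2_Amo-only and 75.4% of gl2_E375G R392M-only peaks. Median tags were 6 for GL2-only peaks, against 5 for gl2_dSTART-only, 6 for gl2_E375G R392M-only, 6 for gl2_Amo-only, 11 for gl2_dZip-only and 5 for gl2-5-only peaks. Median fold was 35.4 for GL2-only peaks, against 35.1, 34.45, 21.6, 19.2 and 42.5 in the same order. Median length was 111 bp for GL2-only peaks, against 96, 94, 118, 137 and 109 bp. High folds on few tags were thus not particular to the GL2 list. Among the GL2-only sites, those with an FDR of 5% or less were in genes in 68.0% of cases (56.8 to 77.5), and the remaining 231 in 56.3% (49.8 to 62.5).

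**Figure D4:**
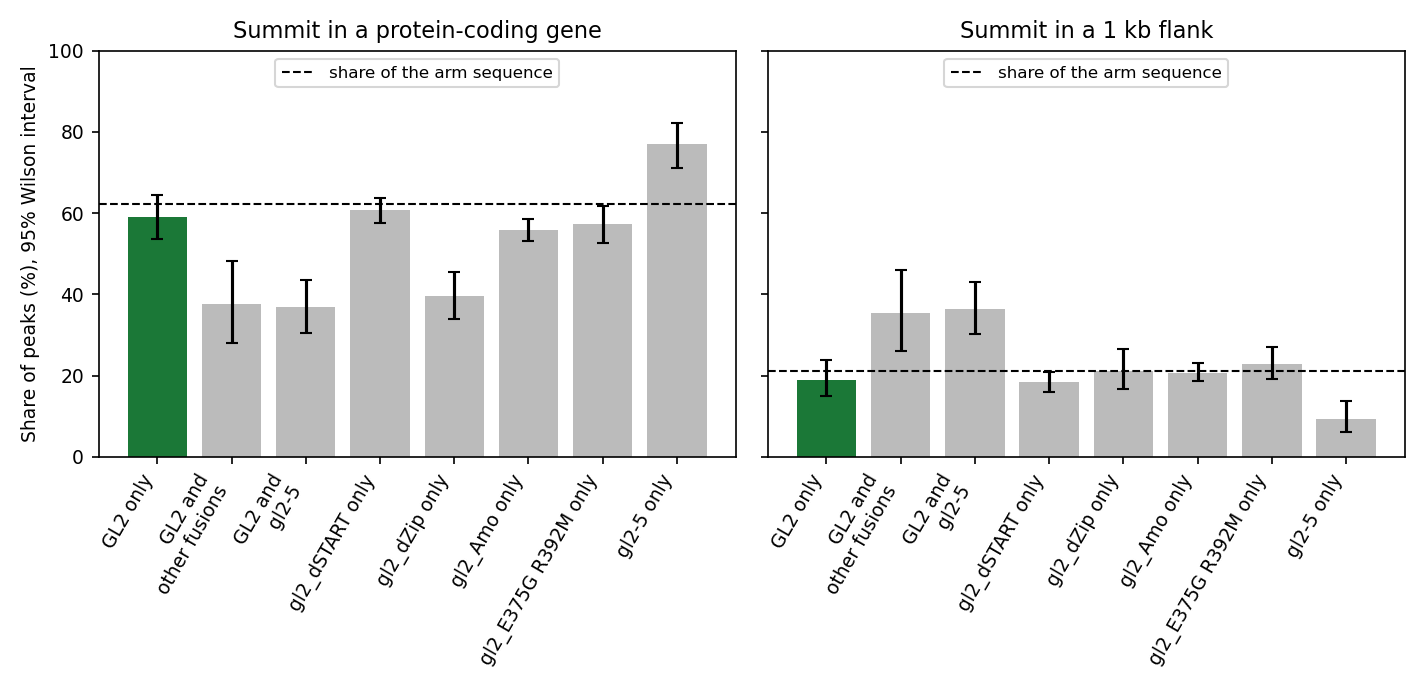
Share of peak summits (%, with 95% Wilson intervals) inside a protein-coding gene (left) and in a 1 kb flank (right), for GL2-only sites in green and other arm sites in grey. Dashed lines give the share of arm sequence in each class, 62.4% and 21.2%, and the GL2-only bars of 59.2% and 19.0% stand near them.

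At 250 of the 306 sites (81.7%, 77.0 to 85.6) the peak came within 1 kb of a protein-coding gene: 163 had 1 such gene, 79 had 2 and 8 had 3. Such nearness was not particular to GL2-only sites. Genes cover 62.4% of the arm sequence and their 1 kb flanks another 21.2%. It held for 76.5% of GL2 peaks shared with other fusions and 75.5% of those shared with gl2-5. Of sites in 1 other list alone, it held for 81.3% (gl2_dSTART), 80.9% (gl2_E375G R392M), 78.8% (gl2_Amo), 63.8% (gl2_dZip) and 87.6% (gl2-5). Altogether GL2-only peaks reached 342 genes, 1.3% of the 26230 protein-coding genes on the arms. Those with an FDR of 5% or less reached 90 genes (0.343%). Any GL2 arm peak reached 659 genes (2.51%). These shares are the background for every gene group below.

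Of the family that GL2 belongs to, 1 gene of 14 on the arms had a GL2-only peak, ATML1 (AT4G21750). A lone peak at a family gene was not particular to GL2. HDG2 had an arm peak of 5 tags in the gl2_dSTART list alone, and FWA one of 7 tags in the gl2_E375G R392M list alone. ATML1 acts with PDF2 to specify the protoderm, the layer from which the epidermis forms. Its peak covered 11558947 to 11559095 on chromosome 4 with the summit inside the gene, held 11 tags, and had a fold of 49.6, a score of 131 and an FDR of 2.31%. Just 1 other member, at WAK5, had an FDR as low, and only 4 members held more tags. By score, however, ATML1 ranked 26 among the GL2-only peaks, tied with WAK5. The deposited FDR did not fall steadily as the score rose. The highest-scoring member, in AT5G41970, had a score of 205 and an FDR of 3.05%. The low FDR therefore does not mark ATML1 as the best-supported site. No other list had a peak within 1 kb of ATML1, and the nearest one lay 6312 bp from the GL2 peak. At the depth of gl2-5 its 11 tags correspond to 7.08, above the lowest called count of 5. PDF2, its closest relative, had peaks in all 6 lists and was set aside by the rule. Whether reads shared between these paralogs were placed at either gene is not given in the sources used here.

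The gene lists for GL2's known territory held no other GL2-only peak. At the background of 1.3%, lists of 12 to 24 genes would mostly be empty, so these zeros do not set the lists apart. No GL2-only peak lay within 1 kb of any of 23 trichome and patterning genes, 18 root hair genes, 13 seed coat mucilage genes, 24 cuticle and wax genes, 14 anthocyanin and flavonoid genes or 12 stomatal genes. Among the trichome genes, MYB23, a MYB factor of trichome branching, was the one with a GL2 peak, which was shared with gl2-5 and is no member. Peaks in the list of 1 altered form alone were found at TRY (5 tags) and CPC (6 tags) for gl2_dSTART. Others were at EGL3 (7 tags) for gl2_E375G R392M and MYB106 (10 tags) for gl2_Amo. Of 8 housekeeping genes, TUB2 (AT5G62690), which encodes beta tubulin, had a GL2-only peak of 6 tags (chromosome 5, 25182824 to 25182982, fold 28.4, FDR 7.49%). TUB2 has a near-identical neighbour, TUB3, so the placement of its tags is uncertain. In all, 2 of 126 listed genes (1.59%) had a GL2-only peak, near the background of 1.3%.

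The highest scores among the GL2-only peaks went to genes outside these lists. The first was in AT5G41970 (chromosome 5, 16792701 to 16792761, 8 tags, fold 56.7, score 205). The second was in AT1G45180 (chromosome 1, 17101887 to 17101979), where 16 tags gave a fold of 41.3. Peaks with the same 8 tags and fold of 56.7 lay in AT4G16745 (chromosome 4, 9414627 to 9414689) and within 1 kb of AT5G62710 (chromosome 5, 25190790 to 25190851). The most tags of any site, 21, lay within 1 kb of AT3G25716 (chromosome 3, 9373567 to 9373723, fold 37.3). A peak in AT3G56510 had 7 tags, one beside AT4G36640 had 8 and one beside AT3G25719 had 7. Of the 10 highest scores, 3 lay farther than 1 kb from any protein-coding gene. One of these had the largest fold of any site, 70.9 on 10 tags at 29501233 to 29501313 on chromosome 1. The other two lay on chromosome 2, at 19374324 to 19374385 (8 tags) and 15153444 to 15153502 (7 tags).

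The 20 highest-scoring sites whose nearest gene has a symbol follow, together with the genes reached by 2 members. They were chosen by score, not by function. PEX13, a docking protein for import into peroxisomes, held a peak of 10 tags (chromosome 3, 2413207 to 2413287, fold 67.4). GAD4, a glutamate decarboxylase that makes GABA, had 8 tags within 1 kb (chromosome 2, 477284 to 477357, fold 47.5). SSL2, a strictosidine synthase-like gene, had 9 tags beside it (chromosome 2, 17213195 to 17213285, fold 63.8), and its relative SSL1 was also within 1 kb of that peak. The sterol oxidase gene SMO2-1 and REP, which encodes an escort protein of Rab GTPases, each held 6 tags at a fold of 42.5. The chloroplast aldo-keto reductase gene ChlAKR held the same. The REP peak was 746 bp from a peak of another list.

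WAK5, a wall-associated kinase gene, had 11 tags within 1 kb (chromosome 1, 7433003 to 7433139, fold 57.0, FDR 2.31%). WAK genes are close relatives of one another, so shared reads are possible there. IOS1, a receptor-like kinase gene of pathogen responses, had 6 tags beside it, and CRLK2, a calcium-regulated receptor-like kinase gene, held 7 (fold 41.3). IAA12 (BODENLOS), a repressor of auxin responses in embryo patterning, held 6 tags (chromosome 1, 1240574 to 1240639, fold 42.5, FDR 2.41%). The nitrate transporter gene NRT1:2 was reached by 2 members, of 10 tags (26300994 to 26301151, fold 56.7) and of 6 tags (26297109 to 26297253, fold 28.4) on chromosome 1. COR27, a cold-regulated gene linked to the circadian clock, held 10 tags (chromosome 5, 17197816 to 17197943, fold 56.7).

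DMS11, an ATPase gene of RNA-directed gene silencing, held 7 tags (chromosome 1, 6597445 to 6597505, fold 49.6), and NRPC1, which encodes the largest subunit of RNA polymerase III, held 7 at the same fold. The translation factor gene eIFiso4G2 and RMA2, which encodes a membrane-anchored ubiquitin ligase, held 6 each. EMB25 and EMB3006, named for embryo-defective mutants, held 8 and 6 tags, and TRM7 had 7 beside it. HMGA, whose protein binds AT-rich DNA, was 1 of 3 genes reached by 2 members, of 8 tags (chromosome 1, 5139984 to 5140125, fold 42.5) and of 6 tags (5137943 to 5138084, fold 35.4), which lay nearer to its neighbours AT1G14910 and AT1G14890. The third such gene was AT2G20320, with 6 tags at either site.

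**Figure D5:**
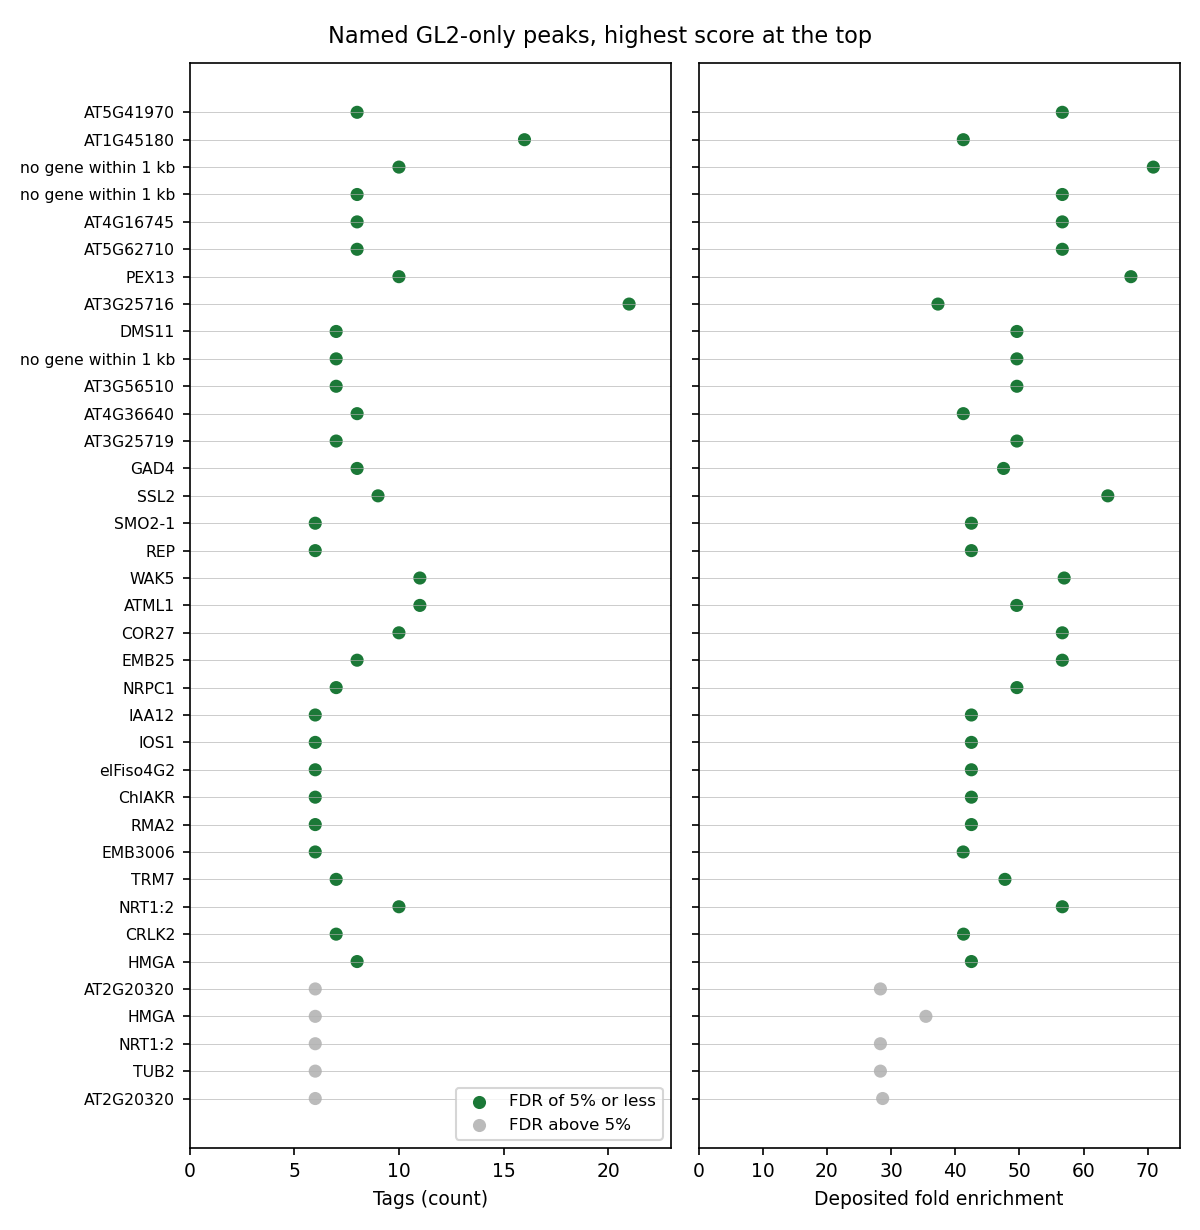
Tags (left) and deposited fold enrichment (right) of the 37 named GL2-only peaks, labelled by gene and ordered by score from top to bottom. Green marks an FDR of 5% or less; ATML1 and WAK5 have 11 tags, and many of the peaks with a gene symbol stand at 6 to 8 tags.

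Broader gene classes, matched by words in gene symbols and synonyms, gave shares whose intervals all held the background of 1.3%. Cytochrome P450 genes had the highest share, 6 of 233 (2.58%, 1.19 to 5.50), reached by 5 members. They included CYP77A6, a cutin hydroxylase gene, and its neighbour UNE9 (CYP77A7) at 1 shared peak of 7 tags (chromosome 3, 3301270 to 3301369, fold 49.6), and CYP86C1, CYP71B26, CYP705A4 and CYP91A2. Receptor-like kinase words gave 3 of 142 genes (2.11%, 0.721 to 6.03), which were SERK2, CRLK2 and CRK42. These words missed WAK5 and IOS1, so the share is not that of the whole class. Ubiquitin pathway genes had 5 of 292 (1.71%, 0.734 to 3.95) and transporters 5 of 420 (1.19%, 0.510 to 2.76). The transcription factor words matched 7 of 700 genes (1.00%, 0.485 to 2.05): IAA12, ARF19, MYB70, MYB3R2, GATA19, AGL105 and ARFC1, which is a GTPase gene caught by its name. Hormone words gave 3 of 290 genes: ARF19, and ALG12 and EGY2, which like ARFC1 were caught by name. They missed IAA12, the auxin synthesis gene YUC4 and the ethylene synthesis gene ACS2, which members also reached. Cell wall words gave 2 of 292 genes, while 0 of 144 RNA-binding genes were reached. Many genes carry no descriptive name in the gene table, and the words also missed or wrongly caught named genes. These classes are therefore incomplete and partly mixed.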

How the data were processed

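Per the file headers, the authors called peaks with MACS 1.4.2 on 1 merged ChIP alignment and 1 input alignment per genotype, at a p cutoff of 1.00e-05, keeping 1 tag per position. This removed 98.2% of the 19652687 GL2 ChIP tags, and 352707 remained. The submitters' processing notes name Bowtie2 2.2.3 and TAIR10. Peaks on the mitochondrial genome were not used. The fitted fragment size was 54 bp for GL2, near the tag length of 51 bp. Deposited tags per peak are whole counts. Scores are as deposited, 10 times the negative log10 of the p-value. The deposited fold is a ratio to the background the caller used, local or genome-wide. The deposited FDR is a percent.

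Peaks were merged into loci with pandas 2.3.3, and shares given 95% Wilson intervals (scipy 1.17.1). Merging was checked on simulated peaks. Gene names and neighbours came from a RefSeq table on TAIR10.1, whose nuclear coordinates were taken to match. It was used without strand, so distances to gene starts, promoters and the planned L1 box search were not analysed here. The members and gene lists were chosen with earlier results of these data known. Genes named in the report were the 10 highest-scoring sites, the 10 highest with an FDR of 5% or less and a gene within 1 kb, the 20 highest with a symbol, listed genes and genes with 2 sites. Gene classes and neighbours of such genes were named after their values were seen. Equal scores were ordered by tags and then by position.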

Additional observations from a re-analysis of the deposited data

How the results depend on the processing

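No paired analysis was possible because each genotype has 1 peak list from merged libraries; for the same reason no replicate could be left out. Of 60 recalculations, 42 stayed within 1.5 times the count or within the 95% interval of the share or median. With GL2 peaks of FDR 5% or less, 75 sites remained, with medians of 7 tags, 79 bp and fold 42.5, 88.0% near a gene, 68.0% with the summit in one, and 1 listed gene (ATML1). With 10 or more tags, 13 sites remained, with medians of 11 tags, 128 bp and fold 42.3, and 1 listed gene. With every list at its 681 highest-scoring peaks the medians were 7 tags, 92 bp and fold 42.5, with 1 listed gene and 213 sites. Genes within 500 bp were found at 73.5% of sites and within 2 kb at 90.8%. Fewer peaks, or a narrower or wider window, enter these values by construction. The number of sites was 298 when peaks within 500 bp were joined, 307 when overlaps had to span 50% of the shorter peak, 310 without the gl2_dZip list, 268 with windows widened by 1 Mb, and 319 without the gl2-5 list, the last chosen after seeing the data. Depth limits single sites, since 194 of the 306 hold 6 tags, fewer than which no GL2 peak has.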

Other observations

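The following genes lie outside the lists and the rule for named genes, were picked singly after their values had been seen, and stand for no gene group. YUC4, an auxin synthesis gene, held a GL2-only peak of 8 tags (chromosome 5, 3612944 to 3613056, fold 49.6, FDR 3.74%). SERK2, a co-receptor kinase gene, held 9 tags (chromosome 1, 12458898 to 12459054, fold 35.4, FDR 3.83%). ACS2, a gene of ethylene synthesis, held 9 tags (chromosome 1, 175817 to 175954, fold 56.7, FDR 3.31%), 438 bp from a gl2-5 peak. RHD3, a gene whose mutants have short, wavy root hairs, was within 1 kb of a peak of 6 tags in its neighbour HSP60-3A (chromosome 3, 4564374 to 4564464, fold 15.1, FDR 9.78%). The expansin-like genes EXLA1 and EXLA3 shared a peak of 7 tags (chromosome 3, 16895041 to 16895190, fold 28.4, FDR 6.30%). ARF19, an auxin response factor gene, was reached by a peak of 6 tags nearer to AT1G19210 (chromosome 1, 6626656 to 6626749, fold 42.5, FDR 5.92%).

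Of the 13 sites with 10 or more tags, AR791 had 15 tags beside it but a fold of 10.2, and PP2-B12 held 12 tags over 211 bp, the longest of all GL2-only peaks, at a fold of 29.1. A site at 7056946 to 7057056 on chromosome 2 had 11 tags and no protein-coding gene within 1 kb. AT5G47970, beside the Rab GTPase gene RABA4C, held 11 tags at a fold of 42.3, and AT1G17830 held 10 at a fold of 25.5.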
